A study of Mus musculus with 6 samples.

Results

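The 9 genes described here, Sln, Myl7, Myl4, Hcn4, Gja5, Nr2f2, Tbx5, Bmp10 and Dkk3, were listed as markers of the atria and of the conduction system, to ask whether a piece of ventricular apex also held other parts of the heart. They were found by symbol among the 37620 genes of the deposited count table, and all 9 had a row. The rule that lists them uses no measured value, but it was chosen with earlier results of these data known. RNA sequencing had been done on apical heart tissue of wild-type mice (strain C57/BL6J) whose myocardium had been made ischaemic for 30 min and reperfused for 120 min, with 3 libraries in each of 2 groups. Mice of the vehicle group were given 2 solvents in turn before surgery, that of yohimbine (an antagonist of alpha-2 adrenergic receptors) and that of dexmedetomidine (an agonist of these receptors). Mice of the dexmedetomidine group were given the yohimbine solvent, 30 min later the drug at 10 µg/kg, and were operated on after a further 20 min. All infusions went into the tail vein over at most 10 min. The labels give no such intervals for the vehicle group and no age or sex, and there was no group without ischaemia. They do not say whether each library came from its own mouse, so a p-value reflects library spread, which may be technical.

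Atrial and ventricular cardiomyocytes build their contractile apparatus from different genes. Atrial myosin carries the light chains coded by Myl7 and Myl4, where ventricular myosin carries those of Myl2 and Myl3. The calcium pump of the sarcoplasmic reticulum is held back by sarcolipin, the product of Sln, in atrial cells and by phospholamban, the product of Pln, in ventricular cells. Pacemaker and conduction cells are marked by the pacemaker channel gene Hcn4 and the gap junction gene Gja5, but Gja5 is also active in arterial endothelium. Nr2f2 codes for a nuclear receptor that specifies atrial and venous identity, Tbx5 for a T-box factor of atria, conduction system and ventricle, Bmp10 for a growth factor made in the adult right atrium, and Dkk3 for a secreted glycoprotein. Some atrial genes, such as Nppa and Myl4, can also come back on in stressed ventricle.

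Sln and Myl7 were nearly absent from 5 of the 6 libraries and present in the other one, dexmedetomidine replicate 3. That library held 432 reads of Sln and 462 of Myl7, against 0 or 1 read of each gene in every other library. Myl4 and Dkk3 were detected in all 6 libraries and highest in the same one. Hcn4, Gja5, Nr2f2 and Tbx5 were present in all 6 libraries, and dexmedetomidine replicate 3 lay inside the range of the others for each of these 4. Bmp10 had no read in any library. Of the 6 genes that could be tested, none differed between the groups in edgeR's quasi-likelihood test at an adjusted p of 0.05.

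Gene counts summed to between 42.7 and 56.6 M reads per library. On the scale of counts per library of 1e6 (CPM), 3 reads, the limit that a count of 0 allows, stood for 0.0512 to 0.077. Reads carried no molecular identifiers as far as the labels say, so such limits and the intervals below cover counting error only. Genes of the mitochondrial genome took up 22.0% to 25.2% of gene counts after vehicle. After dexmedetomidine they took up 27.1%, 36.9% and 38.2% in replicates 1, 2 and 3. Ventricular genes were abundant in every library: Myl2 stood at 3995, 5203 and 3998 CPM after vehicle (replicates 1, 2 and 3) and at 3946, 2792 and 2793 CPM after dexmedetomidine. Besides dexmedetomidine replicate 3, vehicle replicate 2 stood apart, with 608.2 CPM of the immediate early gene Fos.

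Sln (ENSMUSG00000042045) gave 1, 0 and 1 reads in vehicle replicates 1, 2 and 3 and 0, 0 and 432 reads in dexmedetomidine replicates 1, 2 and 3. In that last library its level was 11.09 CPM. Set against the 2 reads of the other 5 libraries together, the level there was 1420 times higher, with a 95% counting interval of 391 to 11800. Which library to set against the rest was chosen after its values were seen, so the ratio is a description of 1 library and says nothing of the groups.

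Myl7 (ENSMUSG00000020469) gave no read in the 3 vehicle libraries and 1, 0 and 462 reads in the dexmedetomidine libraries. Its level in dexmedetomidine replicate 3 was 11.87 CPM, and its ratio to the other 5 libraries was 3040 (95% counting interval 544 to 120000, from 1 read). The same 5 libraries held between 108813 and 258295 reads of the related ventricular gene Myl2.

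Myl4 (ENSMUSG00000061086) was present everywhere at a low level, with 103, 67 and 79 reads after vehicle and 98, 30 and 980 after dexmedetomidine. As levels these were 1.76, 1.35 and 1.37 CPM after vehicle and 1.91, 0.770 and 25.2 CPM after dexmedetomidine. Dexmedetomidine replicate 3 stood 13.2 times above the next highest library, while the other dexmedetomidine libraries lay above and below the vehicle range. Dkk3 (ENSMUSG00000030772) measured 2.65, 2.44 and 2.89 CPM after vehicle and 4.63, 2.05 and 11.99 CPM after dexmedetomidine. Its highest library was again dexmedetomidine replicate 3, at 2.59 times the next, but the gene was readily detected in all 6. Bmp10 (ENSMUSG00000030046) had 0 reads in all 6 libraries, which allows at most 0.0512 to 0.077 CPM.

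**Figure D1:**
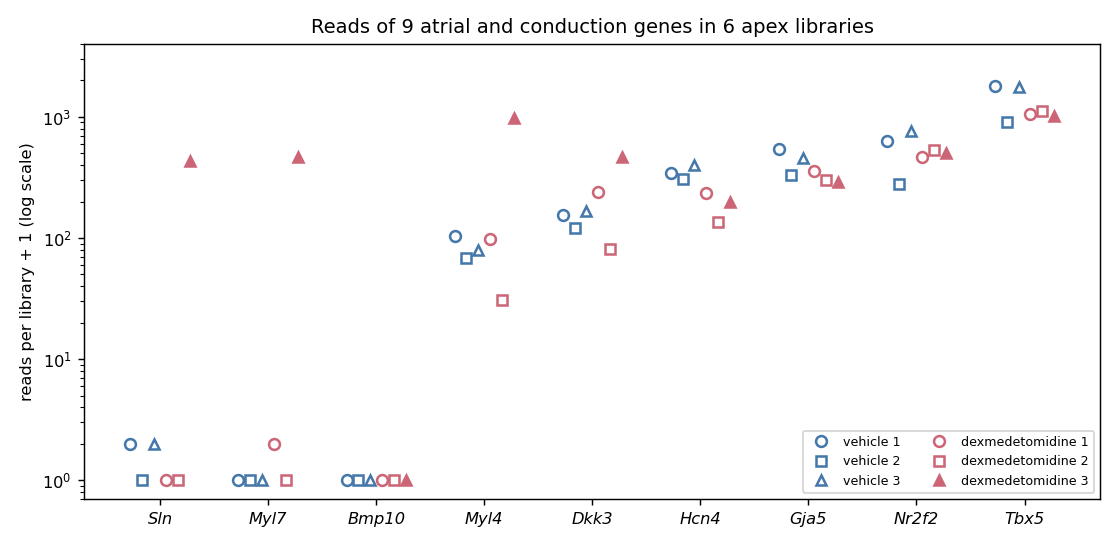
Reads of each of the 9 genes (x axis) in each library, plotted as reads plus 1 on a logarithmic y axis, with vehicle libraries in blue and dexmedetomidine libraries in red and the filled triangle for dexmedetomidine replicate 3. Sln and Myl7 stand at 432 and 462 reads in that library and at 0 or 1 read in the other 5, whereas Hcn4, Gja5, Nr2f2 and Tbx5 lie close together in all 6.

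How far this library differed from the others was read from the whole table, by a rule chosen after the values were seen: at least 50 reads in 1 library and a level at least 5 times that of the next highest. In dexmedetomidine replicate 3, 5 of 37620 genes met it: Myl7, Sln, Myl4, Mybphl and Scgb1a1. The first 3 are members, and Mybphl (ENSMUSG00000068745), which codes for a myosin-binding protein of atrium and conduction system, was on the list of further atrial genes. Mybphl gave 6, 9 and 0 reads after vehicle and 1, 0 and 76 after dexmedetomidine, 31.3 times the level of the other 5 libraries together (95% counting interval 18.1 to 57.5). Scgb1a1, a secretory protein gene of airway club cells, gave 4, 8 and 4 reads after vehicle and 0, 1 and 90 after dexmedetomidine. The airway gene was not accompanied by the lung surfactant genes Sftpc, Sftpb and Sftpa1, each at 0 reads in that library.

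In the other libraries the same rule named 4 genes in vehicle replicate 2, which were Fos, the heat shock genes Hspa1a and Hspa1b and an unnamed gene, 1 in dexmedetomidine replicate 1 (Capn11) and none in vehicle replicates 1 and 3 and dexmedetomidine replicate 2. With the minimum lowered to 20 reads, dexmedetomidine replicate 3 had 7 such genes, now with Cidec and 9030619P08Rik. Vehicle replicate 3 had 12, so the number of such genes alone did not set dexmedetomidine replicate 3 apart. Of its 5 genes, 4 were genes of atrial contraction or calcium handling, and at 50 reads the rule named no member and no further atrial gene in any other library.

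**Figure D2:**
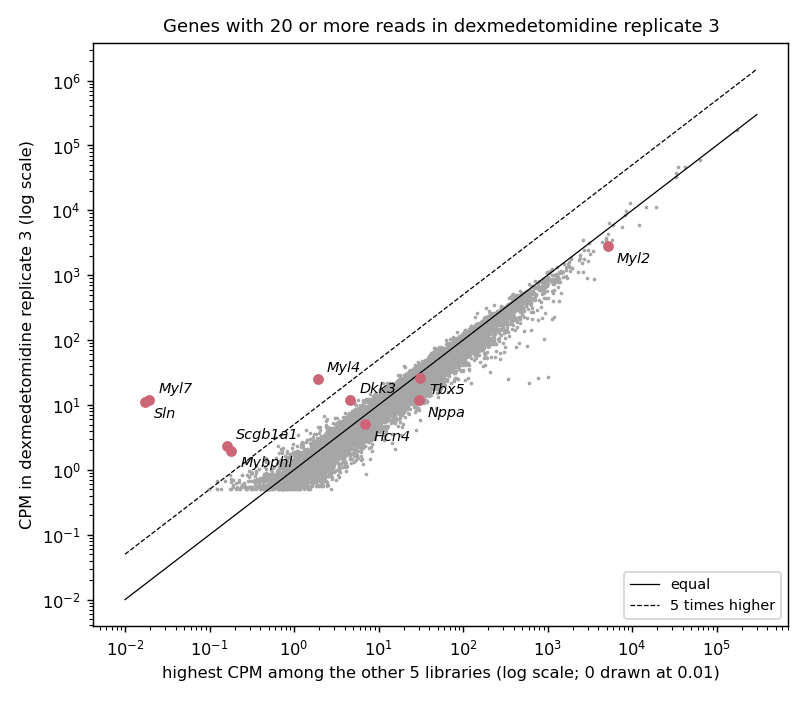
Level of each of 13379 genes with at least 20 reads in dexmedetomidine replicate 3 (y axis, CPM) against its highest level in the other 5 libraries (x axis, CPM), both axes logarithmic, with a solid line for equal levels and a dashed line for 5 times higher. Sln, Myl7, Myl4, Mybphl and Scgb1a1 lie above the dashed line, as do Cidec and 9030619P08Rik, which carry no label. Hcn4, Nppa and Tbx5 lie below the solid line.

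Further atrial genes did not all follow Sln and Myl7, and some of them were abundant in every library. Kcna5, for example, stood at 54.5 to 86.7 CPM over the 6 libraries. Myl7 reached 11.87 CPM in dexmedetomidine replicate 3. Of 12 other genes of atrial cardiomyocytes, 4 were highest in dexmedetomidine replicate 3: Mybphl, Fgf12, the potassium channel subunit gene Kcnj3 and the T-box gene Tbx20. Vehicle replicate 2 was highest for 3, vehicle replicate 3 for 2, and dexmedetomidine replicates 1 and 2 for 1 and 2. The share of all genes highest in each library was not counted. Kcnj3 stood at 31.7, 36.4 and 40.0 CPM in the dexmedetomidine libraries, so it was not particular to replicate 3. Fgf12 gave 15, 7 and 10 reads after vehicle and 0, 2 and 21 after dexmedetomidine, and Tbx20 stood at 72.1 CPM against 53.8 to 56.7 CPM in the other libraries. Nppa, which codes for atrial natriuretic peptide, measured 20.5, 30.1 and 13.9 CPM after vehicle and 17.7, 6.75 and 11.7 CPM after dexmedetomidine. Dexmedetomidine replicate 3 was thus the second lowest library for Nppa and the highest for Sln and Myl7. Nppa was present in every library. What amount of Nppa or of the other abundant atrial genes a piece of atrium would add was not tested.

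Ratios of atrial to ventricular genes within a library do not depend on library scaling. Per 100000 reads of Myl2, Myl7 had 0 reads in the 3 vehicle libraries, 0.493 and 0 in dexmedetomidine replicates 1 and 2 and 425 in replicate 3. Per 100000 reads of Myl3, Myl4 had 36.7, 23.3 and 30.7 reads after vehicle and 43.3, 21.3 and 713 after dexmedetomidine. For Sln and Pln, with reads divided by gene length, the ratio per 100000 was 2.01, 0 and 2.14 after vehicle and 0, 0 and 912 in dexmedetomidine replicates 1, 2 and 3. Between the groups none of the 3 ratios passed a test: exact two-sided permutation tests gave p = 0.4, 0.5 and 1 (adjusted over the 3 ratios 0.75, 0.75 and 1), where 3 against 3 libraries cannot give less than 0.1. Without dexmedetomidine replicate 3, the difference between groups in Myl7 per 100000 reads of Myl2 went from 142 to 0.246, that of the log2 ratio of Myl4 to Myl3 from 1.55 to 0.030, and that of Sln to Pln from 302.5 to -1.38.

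Markers of other tissues were set beside these genes. Sln is also active in skeletal muscle, whose 9 markers summed to 2.08 CPM in that library and to between 1.45 and 2.44 CPM in the others, with the fast myosin gene Myh4 at 0 reads in all 6. Of the markers of cardiac ganglion neurons, which lie mostly on the atria, Chat, Th and Chrna3 had no read in any library and Prph had 0 to 26 reads. Dbh, the gene of the enzyme that makes noradrenaline, was detected in all 6 libraries at 1.03 to 2.31 CPM and was lowest in dexmedetomidine replicate 3. The 5 lung markers summed to 2.41 CPM in dexmedetomidine replicate 3 and to between 0.205 and 0.622 CPM in the others, and Scgb1a1 made up 2.31 of the former. The 7 epicardial markers summed to 17.5 CPM in dexmedetomidine replicate 3 and to between 15.9 and 33.3 CPM in the others. Of these 7, 4 were highest in vehicle replicate 2 and 2 in dexmedetomidine replicate 3, Upk3b at 0.899 CPM against 0 to 0.322 CPM and Krt8 at 0.411 CPM against 0.0171 to 0.205 CPM. Msln gave 0, 54 and 1 reads after vehicle and 1, 1 and 26 after dexmedetomidine. Krt19 and Upk1b had 1 read each in dexmedetomidine replicate 3. The epicardial factor gene Wt1 was lowest in dexmedetomidine replicate 3, at 9.14 CPM against 11.01 to 28.9 CPM. Together with Tbx18, at 6.32 CPM, Wt1 made up most of the sum there. Where the atrial transcripts in dexmedetomidine replicate 3 came from was not tested. In pieces of tissue, more cells of a type and more RNA per cell cannot be told apart.

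The remaining 4 members were detected in every library, and for Tbx5, Nr2f2 and Gja5 the groups overlapped. Tbx5 (ENSMUSG00000018263) measured 30.8, 18.1 and 30.3 CPM after vehicle and 20.6, 28.8 and 26.0 CPM after dexmedetomidine. Nr2f2 (ENSMUSG00000030551) measured 10.7, 5.62 and 13.1 CPM after vehicle and 8.99, 13.7 and 12.9 CPM after dexmedetomidine. For both genes vehicle replicate 2 was the lowest library and the groups overlapped. Gja5 (ENSMUSG00000057123) measured 9.20, 6.69 and 7.85 CPM after vehicle and 6.96, 7.70 and 7.42 CPM after dexmedetomidine, so that all dexmedetomidine values lay within the vehicle range.

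Hcn4 (ENSMUSG00000032338) was the member whose groups did not overlap, with 5.89, 6.16 and 6.85 CPM after vehicle and 4.57, 3.46 and 5.03 CPM after dexmedetomidine. Groups did not overlap in the lower direction for 12% of the 14738 tested genes, so 1 of 6 tested members is near the background. The log2 fold change of Hcn4, dexmedetomidine minus vehicle, was -0.53 (SE 0.21), with an unadjusted edgeR p of 0.032 and an adjusted p of 0.189. Removing each library's trend on GC content and gene length moved it to -0.18 (edgeR adjusted p = 0.773).

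The tested members as a set were split evenly, 3 with positive and 3 with negative log2 fold changes, with a median of 0.10 against 0.003 over all tested genes. With the GC and length offsets 5 were positive and 1 was negative, with a median of 0.059 against 0.036. None passed the edgeR threshold, where 0% of tested genes did. At an unadjusted p under 0.05, 1 member (Hcn4) was lower and none was higher, against 9.03% and 12.5% of tested genes. DESeq2 and limma-voom also called no member, against 9.51% of 13149 genes in DESeq2 and 14% of 14738 genes in limma-voom. Myl4 had a log2 fold change of 2.63 (SE 1.14, edgeR adjusted p = 0.234), the largest in size of the 6. Without dexmedetomidine replicate 3 it was -0.15 (edgeR adjusted p = 0.932), a shift of -2.78 that ranked 2 in size among 14738 genes. The log2 fold change of Dkk3 went from 1.23 (SE 0.55, edgeR adjusted p = 0.241) to 0.34, which ranked 81. Nr2f2 stood at 0.27 (SE 0.30), Gja5 at -0.11 (SE 0.18) and Tbx5 at -0.075 (SE 0.22), with edgeR adjusted p of 0.645, 0.777 and 0.879.

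**Figure D3:**
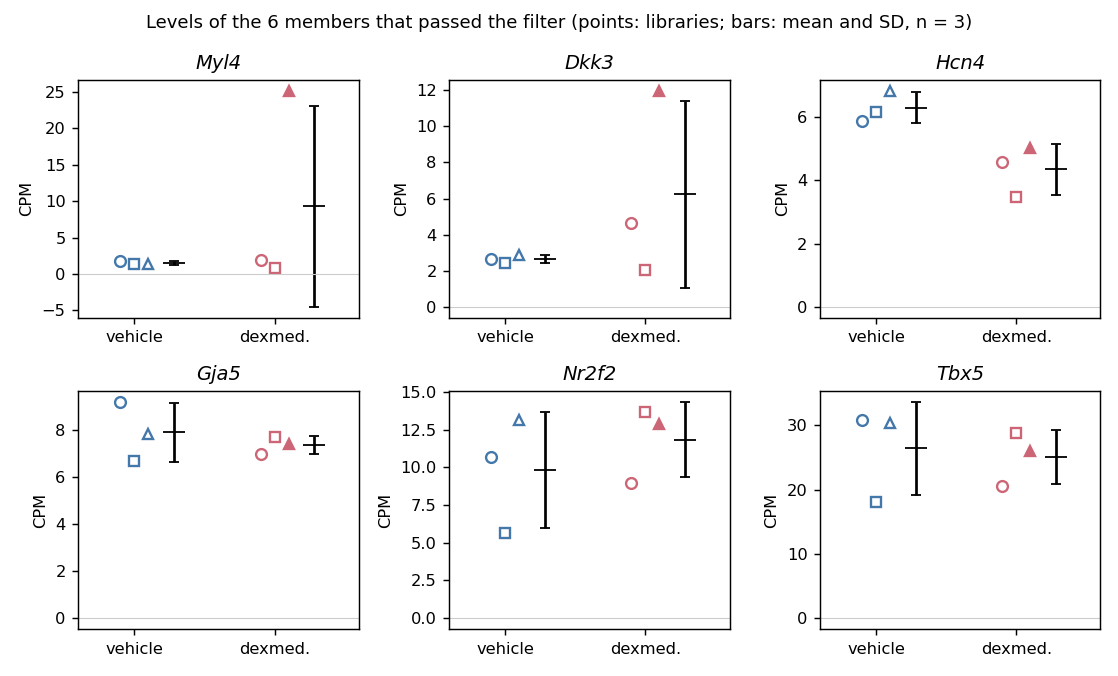
Levels in CPM (y axis, 1 panel per gene) of the 6 members that passed the filter, with 1 point per library and the group mean and SD (n = 3) as a bar beside the points. For Myl4 and Dkk3 dexmedetomidine replicate 3 (filled triangle) lies far above the other libraries of its group, whose SDs are 13.8 and 5.16 CPM, and for Hcn4 the groups do not overlap.

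Sln, Myl7 and Bmp10 did not pass the filter, which asks for enough reads in at least 3 libraries, and have no group test. With the filter lifted, edgeR gave adjusted p of 0.404 for Sln and 0.551 for Myl7, and DESeq2 gave no p for either. A group mean hides the pattern for these genes: Sln averaged 3.70 ± 6.41 CPM after dexmedetomidine and 0.0115 ± 0.00992 CPM after vehicle (SD, n = 3), with the SD of the dexmedetomidine group larger than its mean.

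**Figure D4:**
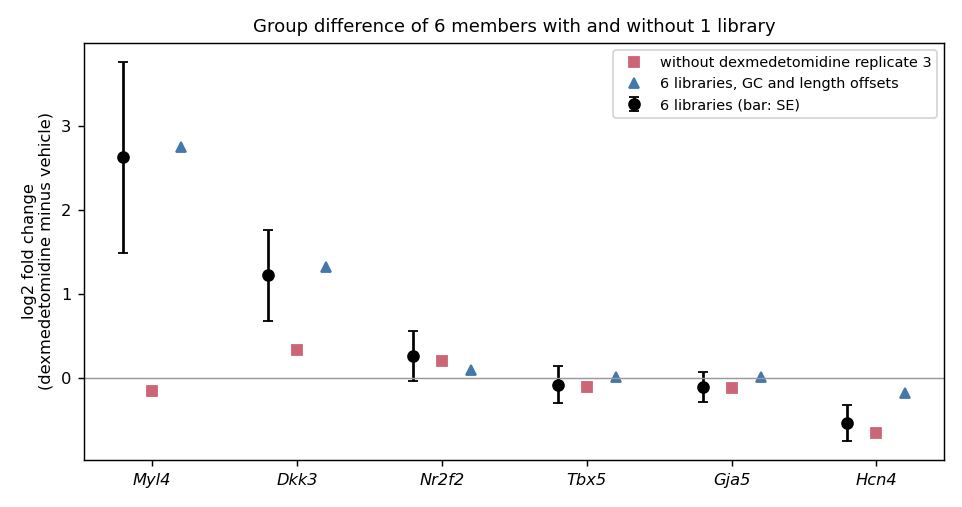
Log2 fold change (y axis, dexmedetomidine minus vehicle) of the 6 tested members with all libraries (black, bar for the SE), without dexmedetomidine replicate 3 (red squares) and with offsets for GC content and length (blue triangles). Myl4 moves from 2.63 to -0.15 when that library is left out, and Hcn4 moves from -0.53 to -0.18 with the offsets.

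Compared per length, as CPM per kilobase of the deposited gene length, Tbx5 had the highest median over the 6 libraries at 6.95, followed by Nr2f2 at 2.42, Hcn4 at 1.44, Gja5 at 1.32, Dkk3 at 0.824 and Myl4 at 0.337. Sln had a median of 0.0166, and Myl7 and Bmp10 of 0. Only Tbx5 was apart from its neighbour in this order, and the ranges of all later neighbours overlapped. In dexmedetomidine replicate 3 alone the order was another one, led by Sln at 21.5 CPM per kilobase and Myl7 at 20.1, with Tbx5 at 6.59, Myl4 at 5.43 and Dkk3 at 3.57. The deposited length of Myl4 is 4637 bases and those of Sln and Myl7 are 515 and 590. Which transcripts these lengths cover is not stated, and the level of Myl4 per length depends on it.

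Of 15 pairs of members, none passed an adjusted p of 0.05 by Pearson's r and 1 passed by Spearman's rho. Over the 6 libraries Myl4 and Dkk3 had a Pearson r of 0.96 (exact permutation p = 0.00417, adjusted over 15 pairs 0.0626) and a Spearman rho of 0.943 (p = 0.0167, adjusted 0.125, exact permutation). Leaving out dexmedetomidine replicates 3 and 2, the libraries farthest from the median of Myl4, r was 0.703 over the remaining 4. Gja5 and Tbx5 ranked the libraries identically, with a Spearman rho of 1 (exact permutation p = 0.00278, adjusted 0.0417) and a Pearson r of 0.856 (exact permutation p = 0.0167, adjusted 0.118). Without vehicle replicates 1 and 2 their r was 0.997. Nr2f2 and Tbx5 had an r of 0.866 (exact permutation p = 0.0236, adjusted 0.118), which was -0.439 without vehicle replicate 2 and dexmedetomidine replicate 1 and so rested on those libraries. Myl4 had an r of 0.077 with Hcn4 and -0.079 with Gja5. The 6 libraries fall into the 2 treatment groups, and 3 libraries a group are too few for a value within groups.

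Among 11667 named genes with at least 1 CPM, those most like Myl4 in log2 CPM over the 6 libraries were BC048403 (r = 0.988), the mitochondrial magnesium channel gene Mrs2 (0.983) and the guanine nucleotide exchange factor gene Dock2 (0.975). Their levels in dexmedetomidine replicate 3 were raised far less than that of Myl4, for example 25.8 CPM of Mrs2 against 19.2 to 20.8 CPM elsewhere. Dkk3 came at rank 10 in this order. The genes most like Hcn4 were the lysosomal sulfamidase gene Sgsh (r = 0.991), the kynurenine aminotransferase gene Kyat1 (0.987) and the RNA cap methyltransferase gene Pcif1 (0.987). Those most like Gja5 were Bend7 (0.974), the transcriptional coactivator gene Crtc3 (0.963) and the corepressor gene Tle1 (0.957), with Tbx5 at rank 41. These likenesses rest on 6 points each and are given as a description.

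Genes of the sinus node and conduction system beyond Hcn4 and Gja5 were mostly present in all libraries. Of 17 such genes, 1 was highest in dexmedetomidine replicate 3, Kcne1 at 5.60 CPM against 2.68 to 4.45 CPM. Shox2 and Isl1, which define the sinus node, had no read in any library, and the conduction gap junction gene Gjd3 had 0 to 13 reads. Of the 14 tested, 7 had positive and 7 negative log2 fold changes (median -0.022), or 11 and 3 with the GC and length offsets. DESeq2 called none of them. Limma-voom called Hcn2, Etv1 and Nkx2-5, against 14% of all tested genes. None passed the edgeR threshold. At an unadjusted p under 0.05 Tbx18 was higher, with a log2 fold change of 0.60, and Nkx2-5, a cardiac homeobox factor, was lower at -0.37, but with the GC and length offsets the latter stood at 0.26. Tbx3, which represses working myocardial genes in the conduction system, stood at 20.5 ± 1.42 CPM after vehicle and 19.5 ± 2.27 CPM after dexmedetomidine (SD, n = 3).

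Of the 9 tested genes among the 12 further atrial genes, 5 had positive and 4 negative log2 fold changes (median 0.09), and none passed in edgeR. DESeq2 called 2 of them higher, against 6.57% of the genes it tested: Kcnj3, at 22.9 ± 4.73 CPM after vehicle and 36.0 ± 4.18 CPM after dexmedetomidine, and the muscarinic receptor gene Chrm2, at 58.4 ± 20.0 and 100.3 ± 11.9 CPM (SD, n = 3). Both had values that did not overlap between the groups, as had 15.6% of tested genes in this direction. Their log2 fold changes were 0.65 (SE 0.17) and 0.78 (SE 0.24), and 0.38 and 0.33 with the GC and length offsets. All 3 dexmedetomidine libraries were above the vehicle libraries for these genes, unlike for Sln and Myl7.

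The 10 genes listed as ventricular had a median log2 fold change of -0.29, with 4 positive and 6 negative, and none passed in edgeR. Whether each of them, such as Myh6, is confined to the ventricle was not tested. Myl2 and Myl3 stood at -0.47 (SE 0.17) and -0.38 (SE 0.15), and Pln stood at 0.48 (SE 0.14). Groups did not overlap for 4 of the 10 genes in the lower direction (Myl2, Myl3 and the myosin heavy chain genes Myh6 and Myh7), against 12% of tested genes, and for 2 in the higher direction (Pln and the potassium channel gene Kcnd2), against 15.6%. DESeq2 called Pln higher, against 6.57% of the genes it tested, and Myh6 and Myh7 lower, against 2.94%. Limma-voom called Myl2, Myl3, Myh6, Pln and Hey2, against 14% of tested genes in either direction. With the GC and length offsets Myl2, Myl3 and Pln were at -0.36, -0.18 and -0.24. Myh6 went from -0.47 to -0.22 and Myh7 from -0.67 to -0.46 under these offsets. In dexmedetomidine replicates 3 and 2 the 2 light chain genes stood at close levels. These were 2793 and 2792 CPM for Myl2 and 3531 and 3608 CPM for Myl3. Replicate 3 held 462 reads of Myl7 and replicate 2 none. In replicate 3 Myl7 came to 425 reads per 100000 of Myl2. Whether other tissue in that library changed the levels of Myl2 and Myl3 was not tested.

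Gja5 and Nr2f2 are also genes of vessels, so endothelial markers were set beside them. The 9 arterial markers summed to 224 to 239 CPM after vehicle and 176 to 192 CPM after dexmedetomidine, with 7 of 9 log2 fold changes negative, or 5 of 9 with the GC and length offsets. Sox17 stood at -0.73, and at -0.59 with the offsets. None of the 9 passed in edgeR, and DESeq2 called Sox17 and Sema3g lower, against 2.94% of the genes it tested. The 8 venous and lymphatic markers summed to 339 to 365 CPM after vehicle and 326 to 343 CPM after dexmedetomidine, with 4 positive and 4 negative log2 fold changes, or 5 and 3 with the offsets. DESeq2 called 1 of them lower, Ephb4, a venous receptor gene, whose log2 fold change was -0.43, and -0.078 once GC and length offsets were fitted. The part of these cells in the values of Gja5 and Nr2f2 was not tested. In the annotation used for names, Gja5 shares exonic sequence with Gpr89 and Nr2f2 with B130024G19Rik on the other strand. Myl4 does so with Gm22000 and Mybphl with Gm12522, also on the other strand. Whether counting used strand is not stated, so reads of these partners cannot be told apart.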

How the data were processed

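The authors deposited raw read counts per gene in 1 table, which also gives a length in bases for each gene. Tools named in the submitters' processing notes were Trim Galore and HTSeq, and the build was mouse mm9. Per the labels' protocols, 1 µg of RNA per sample was selected on poly-T beads and built into libraries with an NEBNext Ultra kit. No source used here gives the aligner, annotation, versions or strand setting. GENCODE M21 is on GRCm38, another build, so it served for symbols (32897 of 37620 genes matched), GC content and overlapping genes, and no coordinates are printed. The 5 summary rows that name no gene held 33.3% to 44.5% of all reads and stayed out of library sizes and tests. Every pair of libraries differed beyond sampling noise (chi-square over degrees of freedom from 30.1 to 471), and each was kept as 1 sample.

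Genes were tested over the whole table in R 4.3.3 by the robust quasi-likelihood F test of edgeR 4.0.16 after filterByExpr and TMM scaling, with Benjamini-Hochberg adjustment and a threshold of 0.05. Of 14738 genes that passed, 6 were members. SE is the log2 fold change divided by the root of F. CPM used TMM-scaled library sizes, and log2 CPM a prior count of 2. Two-sided exact permutation tests served ratios and correlations. The Myl7 and Sln ratios were left on a linear scale because libraries at 0 reads have no logarithm. GC and length offsets came from splines with 5 degrees of freedom fitted per library, with GC known for 97.2% of tested genes. Alternatives used DESeq2 1.42.0, limma 3.58.1 (voom with quality weights), other scalings and filters, a replicate block and each library left out. The fit was tested on simulated data. The members, lists and tests were chosen with earlier results of these data known. All 9 members were named, as were genes of the atrial, conduction and ventricular lists, up to 3 of the most abundant or a 0 of each other list, and the 3 genes most like Myl4, Hcn4 and Gja5. Sox17, Sema3g, Ephb4, Wt1, Upk3b, Krt8, Msln, Krt19, Upk1b, Dbh, Prph, Scgb1a1, Cidec, 9030619P08Rik, Capn11, Fos and the heat shock genes were named after their values were seen.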

Additional observations from a re-analysis of the deposited data

How the results depend on the processing

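No member was called under any of the 14 alternatives to the edgeR fit, and the test calls for all genes moved widely. EdgeR called 0 genes with all libraries (3172 at an unadjusted p under 0.05), 406 without a filter and 636 with the replicate block, DESeq2 called 1250 and limma-voom 2063. With 1 library left out edgeR called between 0 and 1251 genes, the latter without vehicle replicate 3, and 7 and 5 without dexmedetomidine replicates 1 and 2. The cause was not tested. The labels tie replicate numbers to no shared batch, and deviations of same-numbered libraries correlated at -0.055, 0.036 and 0.153, so the numbers were not taken to pair the libraries. Vehicle replicate 3 and dexmedetomidine replicates 2 and 3 correlated best with their own number, and the other 3 libraries did not. With the block Myl4 and Dkk3 stood at 1.17 and 0.90. With 1 library left out, log2 fold changes ranged from -0.15 to 3.17 for Myl4, from -0.21 to 0.012 for Gja5, from -0.011 to 0.54 for Nr2f2 and from -0.29 to 0.049 for Tbx5, and the Sln to Pln difference from -1.38 to 454.5. With the GC and length offsets Gja5 and Tbx5 were at 0.014 and 0.021. Hcn4 stayed negative under all alternatives (-0.65 to -0.18), Dkk3 positive where tested (0.34 to 1.64). With at least 5 CPM, Dkk3 was not tested. No Pearson r between members passed the threshold under the alternatives run. No ratio passed either, but none could, since its exact permutation test cannot give a p under 0.1. Genes at a few reads, such as Fgf12, are limited by depth.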
